A study of Mus musculus with 8 samples.

Results

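The transcripts described are 9 genes of haemoglobin and red cell development: the alpha globin genes Hba-a1 and Hba-a2, the beta globin genes Hbb-b1 and Hbb-bt, the haem synthesis gene Alas2, the carbonic anhydrase genes Car1 and Car2, the anion exchanger gene Slc4a1 and the transcription factor gene Klf1. They were taken as every probe whose RefSeq accession belonged to one of these symbols, which gave 9 probes for 8 of the 9 genes, out of 55681 probes on the array. Hbb-b1 matched no probe by that rule. The Hbb-bt probe is named through its accession, which the RefSeq table now gives to Hbb-bt and which may have carried the name Hbb-b1 when the array was designed, so which adult beta globin gene it measured is not settled by the name. The measurements were made on mouse spleen NK cells enriched magnetically and then split by eGFP fluorescence under a ChAT reporter (ChAT is choline acetyltransferase, the enzyme that makes acetylcholine). NK cells with the signal (ChAT_positive, 4 arrays) were set against NK cells without it (ChAT_negative, 4 arrays), each array holding RNA pooled from 2 to 4 mice. The strain, age, sex and any treatment of the mice are not given in the labels, and the labels do not say whether pools of a group shared mice, so p-values measure the spread between these pools, which may be technical in part. Reporter-sorted cells stand for ChAT-expressing NK cells only as far as the reporter and the sort gates hold.

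Haemoglobin is the oxygen carrier of red blood cells, built from a pair of alpha and a pair of beta globin chains, each holding a haem group. Klf1 is a transcription factor that switches on adult beta globin and many other genes of maturing red cells, Alas2 encodes the red cell form of the first enzyme of haem synthesis, Car1 and Car2 encode carbonic anhydrases that interconvert carbon dioxide and bicarbonate, and Slc4a1 encodes band 3, which exchanges chloride for bicarbonate across the red cell membrane. The mouse spleen holds many red cells in its red pulp and can make new ones. Inbred mice carry one or another set of adult beta globin genes: the set of C57BL/6 mice holds Hbb-bs and Hbb-bt, and that of some other strains Hbb-b1 and Hbb-b2.

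RefSeq promoters, from 250 bases before to 50 after the gene's start in GRCm38.p6, were found for 5 of the 9 genes. The files do not hold the probe sequences, and the array itself was annotated on an earlier assembly (mm9). The windows below belong to an alpha globin gene whose probe fell in ChAT_positive pools, to a beta globin gene whose probe did not, and to the genes of haem synthesis and of the erythroid regulator. They are Hba-a1 (chr11:32283422-32283721, plus strand), Hbb-bt (chr7:103813874-103814173, minus strand), Alas2 (chrX:150547167-150547466, plus strand) and Klf1 (chr8:84901732-84902031, plus strand), all written 5′ to 3′ along the gene. Capitals mark 3 motifs searched on both strands: GATAA, the core of sites bound by GATA factors, CACCC, the core of sites bound by Klf1 and its relatives, and CCAAT.
Hba-a1: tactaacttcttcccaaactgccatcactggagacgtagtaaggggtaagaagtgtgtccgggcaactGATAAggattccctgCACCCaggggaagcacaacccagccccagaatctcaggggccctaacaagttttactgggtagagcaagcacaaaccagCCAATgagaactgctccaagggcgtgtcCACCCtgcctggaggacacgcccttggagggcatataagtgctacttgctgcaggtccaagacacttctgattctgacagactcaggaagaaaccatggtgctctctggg
Hbb-bt: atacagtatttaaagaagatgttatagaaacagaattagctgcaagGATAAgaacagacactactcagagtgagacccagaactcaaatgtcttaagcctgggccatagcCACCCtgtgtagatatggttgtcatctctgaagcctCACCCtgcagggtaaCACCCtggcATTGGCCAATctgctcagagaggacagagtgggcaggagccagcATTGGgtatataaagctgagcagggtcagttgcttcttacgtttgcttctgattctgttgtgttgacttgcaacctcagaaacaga
Alas2: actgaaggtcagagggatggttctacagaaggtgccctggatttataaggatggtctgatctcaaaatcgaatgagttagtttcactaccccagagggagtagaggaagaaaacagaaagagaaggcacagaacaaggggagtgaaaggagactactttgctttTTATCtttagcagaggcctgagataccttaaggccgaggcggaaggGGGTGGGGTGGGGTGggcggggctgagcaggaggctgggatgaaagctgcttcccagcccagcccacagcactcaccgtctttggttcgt
Klf1: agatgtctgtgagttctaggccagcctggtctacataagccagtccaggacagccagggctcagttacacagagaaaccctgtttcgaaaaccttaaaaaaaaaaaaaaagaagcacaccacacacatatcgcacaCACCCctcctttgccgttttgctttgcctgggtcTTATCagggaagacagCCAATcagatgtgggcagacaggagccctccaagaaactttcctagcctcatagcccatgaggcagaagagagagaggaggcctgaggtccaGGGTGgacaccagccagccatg
All 4 windows held GATAA, and all held CACCC. Over all 32851 promoters of this length, 25.4% held GATAA, 57.5% CACCC, 37.4% CCAAT, and 4.84% all 3. The windows of Hba-a1, Hba-a2, Hbb-bt and Klf1 held all 3, and that of Alas2 held no CCAAT. In Hbb-bt, copies of CCAAT on opposite strands stood side by side, and in Alas2 neighbouring copies of CACCC shared no base. The Hba-a1 and Hba-a2 windows shared a run of 297 identical bases of 300. The windows of Hbb-bt and of its neighbour Hbb-bs shared no run longer than 14. These matches describe letters in the windows and say nothing of binding in these cells.

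Values below are log2 of the background-subtracted probe signal less the 75th percentile of the same array, so 0 is the level below which 75% of probes lie, and each of the 9 probes was read from 1 spot. A probe counts as well above background where the scanner software flagged it so. Between 50.2% and 63.2% of spots per array were well above background, 0 spots were saturated, and the number of arrays limits the precision. The 4 ChAT_positive arrays shared 1 slide and 1 scan, and the 4 ChAT_negative arrays another, so no value below can separate slide from group: the 2 cannot be told apart. The 6 genes Hba-a1, Hba-a2, Hbb-bt, Car1, Car2 and Klf1 were well above background on all 8 arrays and were tested with limma among 13607 genes. Alas2 and Slc4a1 were each well above background on 1 of 8 arrays and did not pass the filter of 4 arrays.

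Of the 6 tested genes, 3 fell in ChAT_positive pools (Hba-a1, Hba-a2 and Car2) and 0 rose, at an adjusted p under 0.05 by limma. Over all genes tested, 3.15% were called lower, 2.81% higher and 5.95% in either direction. At an unadjusted p under 0.05 the counts for the 6 were the same, 3 lower and 0 higher, where 11.9% of all genes were lower and 12.9% higher. The ChAT_positive and ChAT_negative arrays did not overlap for the same 3 genes, with ChAT_positive below, which held for 6.15% of all genes, and 0 of the 6 lay wholly above, which held for 9.34%. The median log2 fold change of the 6 was -1.22, and that of all genes tested was 0.025. Hba-a1 and Hba-a2, whose transcripts are near-identical, enter these counts and the median as separate genes. In bulk RNA, fewer cells of a type and less RNA per cell cannot be told apart.

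**Figure D1:**
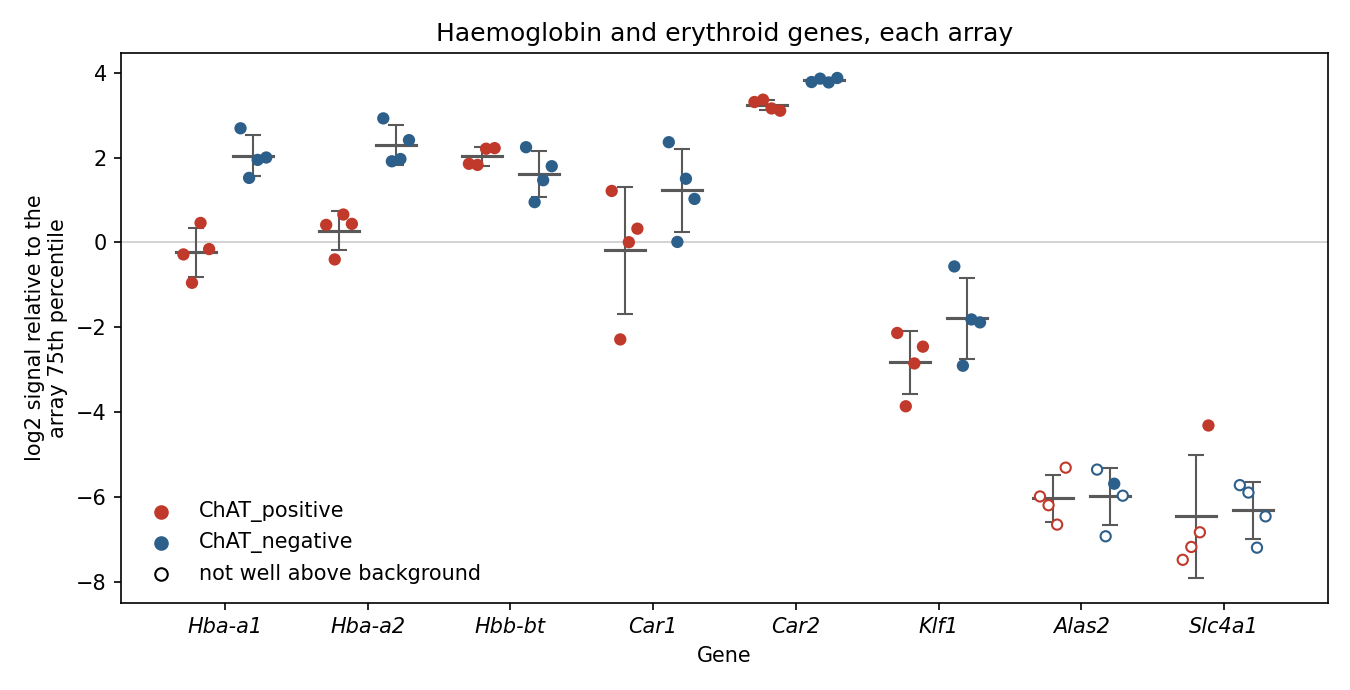
Log2 signal relative to the array 75th percentile (vertical axis) for the 8 genes with a probe (horizontal axis), with ChAT_positive arrays in red left of ChAT_negative arrays in blue. Points are arrays, hollow where the probe was not well above background, and bars are the mean and SD of 4 arrays; Hba-a1, Hba-a2 and Car2 do not overlap between groups, and for Car1 the first of its 2 probes is drawn.

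The alpha globin genes fell furthest. Hba-a1 had log2 signals of -0.28, -0.95, 0.46 and -0.16 in ChAT_positive replicates 1 to 4, against 2.69, 1.52, 1.94 and 2.00 in ChAT_negative replicates 1 to 4. The highest ChAT_positive array thus lay below the lowest ChAT_negative array. Its mean was -0.23 ± 0.58 in ChAT_positive and 2.04 ± 0.48 in ChAT_negative pools (SD, n = 4 each), a difference of -2.27 (SE 0.32) that limma called at adjusted p = 0.0088; on a linear scale it was 4.84-fold lower (95% interval 2.91 to 8.02). Unscaled, its processed intensity ran between 907 and 2533 in ChAT_positive and between 5987 and 13736 in ChAT_negative pools.

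Hba-a2, the neighbouring copy that encodes the same chain, gave 0.41, -0.40, 0.66 and 0.44 in ChAT_positive, against 2.92, 1.91, 1.97 and 2.41 in ChAT_negative pools. Again the groups were apart on every array. Its log2 fold change was -2.03 (SE 0.29), called by limma at adjusted p = 0.0088, which is 4.08-fold lower (95% interval 2.60 to 6.39). Because these transcripts are near-identical, signal of one may be read by the probe of the other. The pair is thus not independent support, though the counts and the median of the 6 tested genes hold both. Both calls held whichever single array was left out, with the highest adjusted p at 0.034 for Hba-a1 and 0.0345 for Hba-a2, each without ChAT_negative replicate 4.

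The beta globin gene Hbb-bt did not follow. Its log2 signals were 1.85, 1.83, 2.21 and 2.22 in ChAT_positive pools, against 2.24, 0.95, 1.46 and 1.80 in ChAT_negative pools. The ChAT_negative arrays spread over 1.30 log2 units and enclosed all ChAT_positive values. Its difference was 0.41 log2 units (SE 0.26, 95% interval -0.17 to 1.00, limma adjusted p = 0.356), so a fall of the size seen in the alpha globins lay outside the interval. The sign stayed positive under every scaling tried and without any single array.

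The other globin probes were read beside it. Hbb-b2, an adult beta globin gene, had log2 signals of -0.069, -0.74, 0.25 and 0.37 in ChAT_positive, against 1.38, 0.33, 0.68 and 0.94 in ChAT_negative pools. The top of the ChAT_positive range passed the bottom of the ChAT_negative range by one array, and the log2 fold change of -0.88 (SE 0.29) was not called (limma adjusted p = 0.105). Hbb-bs, the partner of Hbb-bt in the C57BL/6 set, gave -3.99, -6.07, -4.50 and -4.78 in ChAT_positive, against -2.02, -3.54, -3.33 and -3.11 in ChAT_negative pools. The groups did not overlap. The probe passed background on 1 ChAT_positive array and on all 4 ChAT_negative arrays, and its log2 fold change of -1.83 (SE 0.47) was not called (limma adjusted p = 0.053). Limma called Hbb-bs under normexp background correction (log2 fold change -0.93, adjusted p = 0.0461), with weighted arrays (0.049) and with a robust, trended variance (0.0337). The 4 ChAT_negative arrays alone carried this probe past the filter of 4 arrays. Its lack of overlap, its fold change and these calls are thus a description only.

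Set against Hbb-bt within each array, the other globin probes that were well above background throughout were lower in ChAT_positive pools. The within-array difference to Hbb-bt changed, ChAT_positive minus ChAT_negative, by -2.69 log2 units for Hba-a1, by -2.44 for Hba-a2 and by -1.29 for Hbb-b2. These pairs were picked after the values were seen and share Hbb-bt, so the differences are given as a description with no test. Whether the Hbb-bt probe reads other beta globin transcripts, or transcripts of other genes, was not tested.

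**Figure D2:**
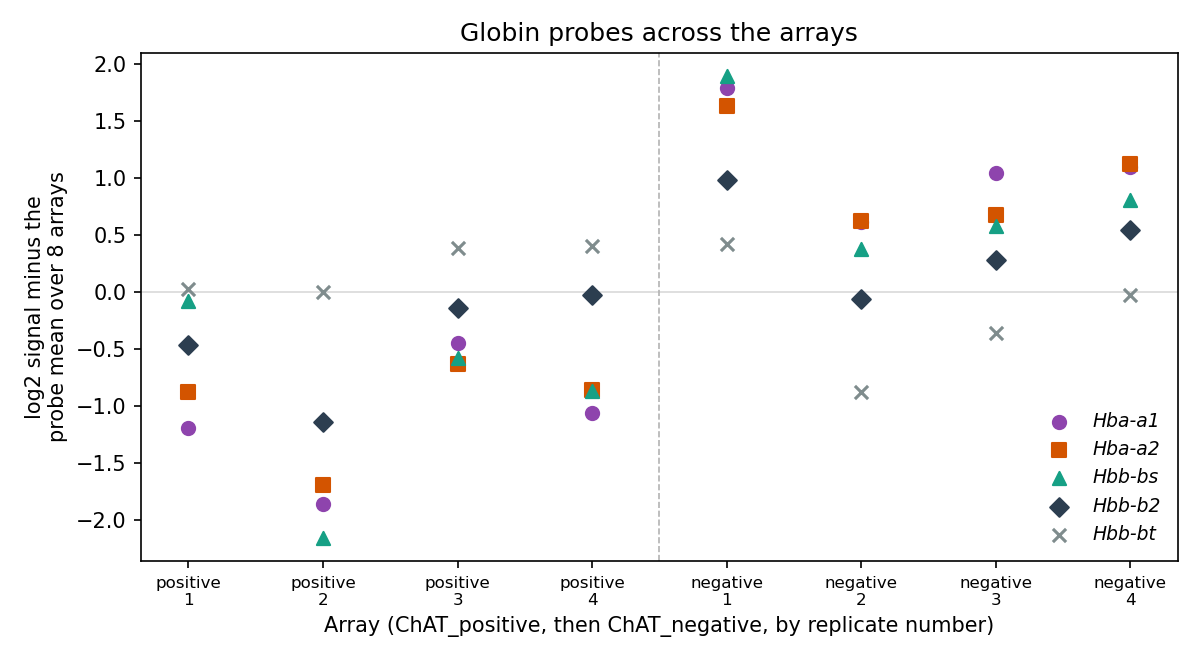
Log2 signal of 5 globin probes less each probe's mean over the 8 arrays (vertical axis), by array (horizontal axis), ChAT_positive left of the dashed line and ChAT_negative right of it. Hba-a1, Hba-a2, Hbb-bs and Hbb-b2 lie below Hbb-bt on all 4 ChAT_positive arrays and above it on all 4 ChAT_negative arrays; Hbb-bs was not well above background on 3 of the 4 ChAT_positive arrays.

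Embryonic and minor globins were at or near background. In GRCm38.p6, Hba-a1 and Hba-a2 stand in a stretch of 5 protein-coding genes that runs Hba-x, Hba-a1, Hbq1b, Hba-a2, Hbq1a, and of these Hba-x, Hbq1a and Hbq1b were well above background on 0 arrays. Hbb-bt stands in a stretch of 5 that runs Hbb-bt, Hbb-bs, Hbb-bh2, Hbb-bh1, Hbb-y. Hbb-bh1, a beta-like globin of the embryo, passed background on 3 ChAT_positive arrays and 1 ChAT_negative array, and its difference of 1.61 log2 units (SE 0.45) was not called by limma (adjusted p = 0.0681). Hbb-bh2 had 0.39 (SE 0.36, adjusted p = 0.544). Of the 4 tested globin genes outside the 9, limma called 0, with 2 lower and 1 higher at an unadjusted p under 0.05. The part of Hbb-bs in these counts is a description only. Ahsp, the alpha globin chaperone gene, matched no probe.

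**Figure D3:**
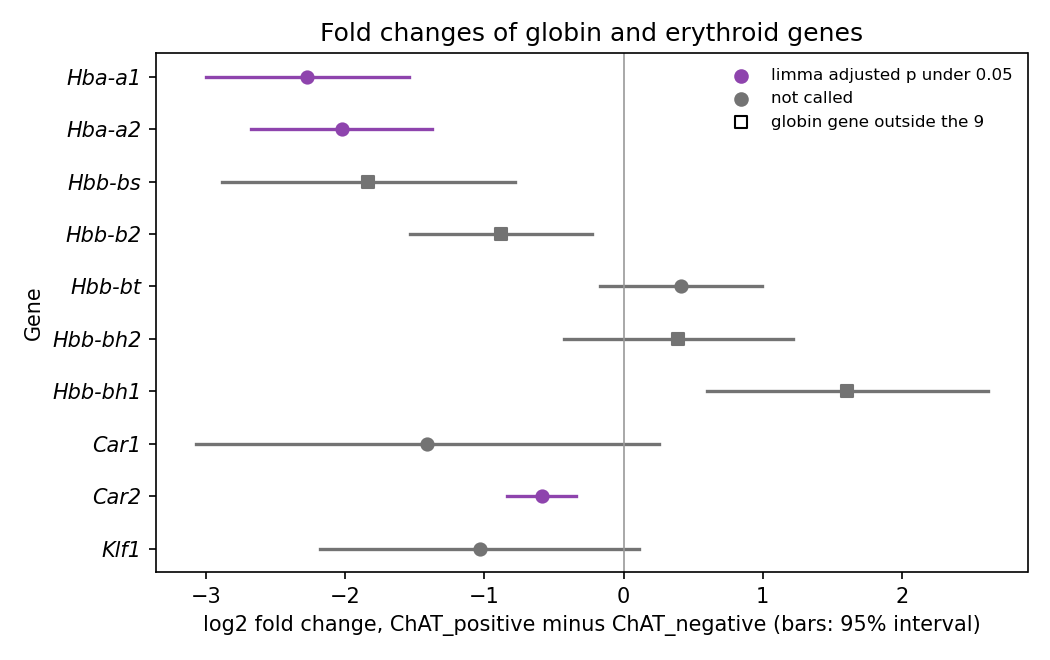
Log2 fold change, ChAT_positive minus ChAT_negative (horizontal axis), with its 95% interval, for the 6 tested genes (circles) and 4 other tested globin genes (squares). The called genes, in purple, are Hba-a1, Hba-a2 and Car2, and the intervals of Hbb-bt, Car1 and Klf1 cross 0.

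Alas2 and Slc4a1 were barely detected. Alas2 gave -5.99, -6.20, -6.66 and -5.31 in ChAT_positive, against -5.36, -6.93, -5.69 and -5.97 in ChAT_negative pools, and was well above background only in ChAT_negative replicate 3. Slc4a1 gave -7.49, -7.18, -6.84 and -4.32 in ChAT_positive, against -5.72, -5.90, -7.20 and -6.46 in ChAT_negative pools, and was well above background only in ChAT_positive replicate 4. In both genes the groups overlapped. At these signals a difference between the groups could not be measured, so neither a fold nor a test is given.

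Car2, the carbonic anhydrase gene, was the brightest of these probes relative to its array in both groups and differed least of the 3 that fell. It had log2 signals of 3.31, 3.36, 3.16 and 3.10 in ChAT_positive, against 3.78, 3.86, 3.77 and 3.88 in ChAT_negative pools. The groups were narrow and apart. Its log2 fold change was -0.59 (SE 0.11), called by limma at adjusted p = 0.0217, which is 1.50-fold lower (95% interval 1.27 to 1.78). Leaving out ChAT_positive replicate 3 (adjusted p = 0.0681), ChAT_negative replicate 2 (0.0527) or ChAT_negative replicate 4 (0.0698) ended the limma call, as did testing dim probes too (0.0599) and under median scaling (log2 fold change -0.37, adjusted p = 0.279), which moved the median of all genes to 0.24.

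Car1 varied widely between pools of a group. Its first probe gave 1.21, -2.29, 0.0037 and 0.32 in ChAT_positive, against 2.36, 0.010, 1.50 and 1.02 in ChAT_negative pools. The ChAT_positive arrays spread over 3.50 log2 units. The log2 fold change was -1.41 (SE 0.74, 95% interval -3.08 to 0.25, limma adjusted p = 0.275), and the second Car1 probe gave -1.37 (SE 0.68, adjusted p = 0.275 with every probe tested on its own), so the probes gave like values and neither was called.

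Klf1 also varied widely within groups. It had -2.14, -3.87, -2.86 and -2.46 in ChAT_positive, against -0.57, -2.91, -1.82 and -1.89 in ChAT_negative pools. The groups overlapped by the ChAT_negative array of replicate 2, which lay below 3 ChAT_positive arrays. The log2 fold change was -1.03 (SE 0.51, 95% interval -2.18 to 0.11, limma adjusted p = 0.246).

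Within each group the same pool tended to be at the end of the range. Over the 7 probes well above background on every array (Hba-a1, Hba-a2, Hbb-b2, Hbb-bt, the first Car1 probe, Car2 and Klf1), ChAT_positive replicate 2 was the lowest of its group for 6 of 7, ChAT_negative replicate 2 the lowest of its group for 6 of 7, and ChAT_negative replicate 1 the highest for 6 of 7. Car2 was the exception each time. Hbb-bt thus shared the order of pools within ChAT_negative with the alpha globins, though not the difference between groups. Gata1, a transcription factor gene of red cell and megakaryocyte development, had -0.47, -2.58, -1.61 and -1.27 in ChAT_positive, against 0.099, -2.14, -0.98 and -1.24 in ChAT_negative pools, also lowest in replicate 2 of each group and highest in ChAT_negative replicate 1; Gata1 was picked after its values were seen.

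The 6 genes outside the 9 whose profile over the 8 arrays lay nearest to the mean profile of Hba-a1, Hba-a2 and Hbb-bt, by root mean square difference, were Hbb-b2 (0.24 log2 units), Tent5b (0.28, well above background on 1 ChAT_positive array and all 4 ChAT_negative arrays), Ccl9 (0.29), Myo1d (0.29), Prss16 (0.30) and H2bc4 (0.30). Ccl9, a chemokine gene, was lower by 1.43 on the log2 scale (SD 0.20 in ChAT_positive and 0.33 in ChAT_negative pools, n = 4 each). The target profile itself was lower in ChAT_positive arrays (-1.18 to -0.23) than in ChAT_negative arrays (0.12 to 1.28). A lower value of a gene picked for likeness to it thus follows from the choice, and no test is given. The target profile averages probes that differ between groups with one that does not, so likeness to it describes these 8 arrays only.

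Other genes of the red cell programme showed few calls, and several of its defining genes were not detected. Of 16 genes of the red cell membrane and its skeleton, 6 were well above background on 0 arrays (among them Epb42, which encodes protein 4.2, and Sptb, which encodes beta spectrin). Of the 7 tested limma called 0, with 0 lower and 1 higher at an unadjusted p under 0.05, and a median log2 fold change of -0.39. The brightest, Epb41 (protein 4.1) and Gypc (glycophorin C), had 0.14 and 0.37 (adjusted p = 0.627 and 0.133). Other red cell genes were well above background on all 8 arrays, among them Ermap, Hemgn, Nfe2, Gata1 and Tal1. Limma called 0 of these 5 (adjusted p of 0.513 and above), also 0 at an unadjusted p under 0.05. All 5 had lower means in ChAT_positive pools, with log2 fold changes of -0.39, -0.12, -0.57, -0.42 and -0.43 in that order. The 95% interval of Hemgn ran from -0.56 to 0.32. Those of Ermap (-1.15 to 0.37), Nfe2 (-1.86 to 0.72), Gata1 (-1.61 to 0.78) and Tal1 (-1.50 to 0.63) were wider. A fall in these genes is thus not excluded. The 5 genes were picked after their values were seen, and the lists they came from were not uniform. Among the 11 tested erythroid transcription factor, receptor and related genes, 9 had lower means and 2 higher. The 2 were Bcl11a and Lmo2. Lmo2 had 0.58 (limma adjusted p = 0.082), with the ChAT_positive arrays wholly above. Among the 7 tested membrane genes, 4 had lower means and 3 higher.

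Of 12 haem synthesis genes other than Alas2, all tested, limma called 0, with 0 lower and 1 higher at an unadjusted p under 0.05, and the median was 0.14. Urod and Tmem14c, the brightest, had log2 fold changes of 0.12 and -0.14 (adjusted p = 0.642 and 0.494). Of 8 genes of transferrin iron uptake and storage, limma called 0, with 2 lower and 0 higher at an unadjusted p under 0.05, and the median was -0.11. The ferritin genes Ftl1 and Fth1 had -0.36 and -0.040 (adjusted p = 0.14 and 0.949). Of 7 tested red cell antioxidant and metabolic genes limma called 0, also 0 at an unadjusted p under 0.05, with Cat (catalase) at -0.12 and Gpx1 at -0.10 (adjusted p = 0.65 and 0.677).

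Of 11 tested erythroid transcription factor, receptor and related genes, 1 rose and 0 fell, with a median of -0.27. At an unadjusted limma p under 0.05, 0 were lower and 2 higher. For 2 genes the ChAT_positive arrays lay wholly above, and for 0 wholly below. The gene called was Bcl11a, which represses embryonic globin genes and is also needed for B cell development. It differed by 0.68 on the log2 scale (SE 0.13), at a limma adjusted p = 0.0221. Leaving out ChAT_positive replicate 3, ChAT_negative replicate 3 or ChAT_negative replicate 4 ended that call (adjusted p up to 0.0652), as did testing dim probes too (0.0596). Of 10 B cell markers 6 rose, with Pax5 at 1.31 and Bank1 at 1.12, and their summed signal ran from 94.0 to 122.9 in ChAT_positive and from 62.6 to 80.3 in ChAT_negative pools, in units of the array 75th percentile; their part in the Bcl11a value was not tested.

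Among 9 tested carbonic anhydrases other than Car1 and Car2, 3 fell and 0 rose, with a median of -0.18. Car4 fell by 0.86 (SE 0.13, limma adjusted p = 0.0113), Car7 by 0.85 (adjusted p = 0.0299) and Car5b by 1.26 (adjusted p = 0.0351), while Car3, which lies between Car1 and Car2 in GRCm38.p6, had 0.32 (adjusted p = 0.685). The Car4 call held without any single array and was lost under median scaling (adjusted p = 0.134). Car7 lost its call without any of 5 single arrays (adjusted p up to 0.0886), under median scaling and with dim probes tested too. Car5b lost it without any of 6 (up to 0.101) and under 5 of 12 other settings, median and quantile scaling among them.

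Of 8 tested genes of haem clearance and red pulp macrophages, limma called 0, with 0 lower and 2 higher at an unadjusted p under 0.05, and a median of 0.052. Blvrb and Blvra, which encode biliverdin reductases, had log2 fold changes of 0.65 and -0.12 (adjusted p = 0.0788 and 0.598). The scavenger receptor gene Cd163 was well above background on 0 arrays.

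Some markers of other blood cells were also lower in ChAT_positive pools. Basophil and mast cell markers (4 of 7 tested lower, median -4.04) summed to between 1.76 and 4.02 in ChAT_positive and between 8.44 and 40.4 in ChAT_negative pools, led by Cd200r3 at least 15.2-fold lower (well above background on 0 of 4 ChAT_positive arrays) and Mcpt8 at -4.04. Platelet markers (2 of 11 lower, median -0.76) summed to between 8.84 and 13.3 in ChAT_positive and between 14.5 and 29.8 in ChAT_negative pools, with Clec1b at -2.22 and Ppbp at -2.46. Neutrophil markers (3 of 12 lower, median -1.82) summed to between 7.53 and 46.3 in ChAT_positive and between 28.8 and 79.0 in ChAT_negative pools, with Mpo at -2.25 and Retnlg at least 3.63-fold lower (0 of 4 ChAT_positive arrays well above background). An "at least" value sets the mean of the ChAT_negative pools against the detection limit of the ChAT_positive arrays and holds no sampling error. Cd200r3 and Retnlg passed the filter only through the ChAT_negative arrays. Their calls, and their part in the 4 of 7, the 3 of 12 and the medians, are thus a description only. Mcpt8 lost its call without ChAT_negative replicate 4 (adjusted p = 0.0547), and Ppbp, Mpo and Retnlg each without any of 3 or 4 single arrays (adjusted p up to 0.0671, 0.0665 and 0.0589). At an unadjusted limma p under 0.05, 6 of 7 basophil and mast cell, 6 of 11 platelet and 7 of 12 neutrophil markers were lower. In each list 0 were higher. The platelet marker Gp6 was well above background on 1 ChAT_positive array and 4 ChAT_negative arrays, so it too passed the filter through the latter. The part of Cd200r3, Retnlg and Gp6 in these counts, and of Gp6 in the platelet median, is a description only. Every marker of these 3 lists with a probe was well above background on at least 1 array (Ly6g matched none), and their part in the globin values was not tested.

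NK cell markers (3 of 12 lower, median -0.55) summed to between 182.6 and 272.3 in ChAT_positive and between 272.9 and 332.1 in ChAT_negative pools, with Klrb1c at -1.60 and Klrk1 at -1.14, so defining NK transcripts were present in both groups. At an unadjusted limma p under 0.05, 10 of the 12 were lower and 0 higher. Of 10 T cell markers limma called 0 (1 lower and 0 higher at an unadjusted p under 0.05), with Cd3d at 0.057. Of 7 progenitor markers 1 fell, Myb, by 0.64 (adjusted p = 0.0312), a call lost without any of 6 single arrays (adjusted p up to 0.0912). Leaving out 1 array moved the number of lower calls between 1 and 6 for basophil and mast cell, 1 and 4 for platelet, 0 and 3 for neutrophil, and 2 and 5 for NK cell markers, and the number of higher B cell calls between 4 and 5.

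**Figure D4:**
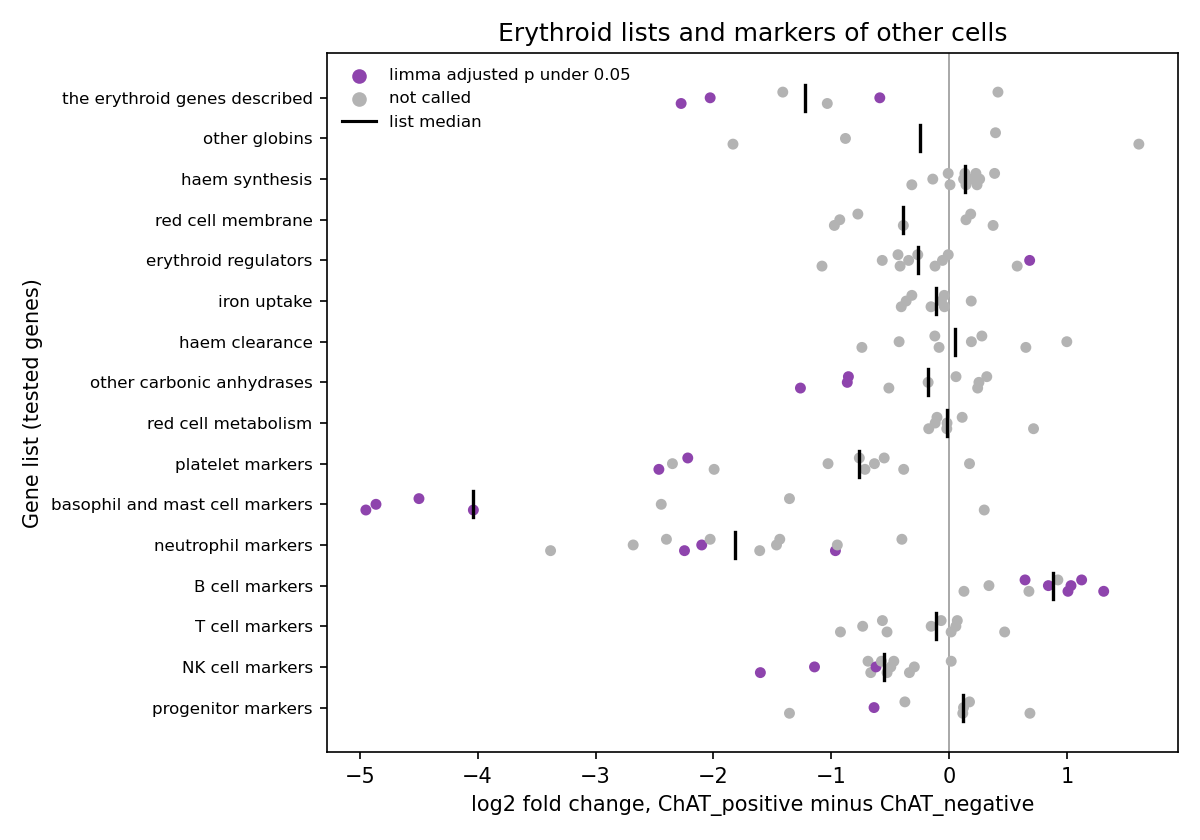
Log2 fold change, ChAT_positive minus ChAT_negative (horizontal axis), of each tested gene (points) in the erythroid lists and in the marker lists of other cells (vertical axis), with the list median as a black line and genes called by limma in purple. Called genes lie left of 0 in the described genes, the other carbonic anhydrases, the basophil, platelet, neutrophil and NK cell markers and, for Myb, the progenitor markers. They lie right of 0 in the B cell markers and, for Bcl11a, in the erythroid regulators.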

How the data were processed

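RNA of 8 pools was measured on 1-colour (Cy3) Agilent arrays, 4 pools per group, from 100 ng total RNA amplified by in vitro transcription per the labels' protocols. The deposited spot intensities and flags came from Agilent Feature Extraction 11.5.1.1, per the file headers; its processed intensity has background removed and carries no scaling across arrays. The authors' deposited value table holds log2 values, which followed log2 of the processed intensity less 1 constant per array within 0.0065 of its 75th percentile; it was used as an alternative. Its column medians lie between -0.72 and -0.63, its direction is that of the signal, it is not centred per gene and its rule for choosing probes is not stated there.

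Left out were control spots and the 1344 spot values with an outlier flag (51 probe values with every spot flagged were kept), and spots of a probe were averaged. RefSeq accessions without versions named 26762 of 55681 probes through a table of GRCm38.p6, and 28919 were not named. Main values are log2 processed intensity minus the array's 75th percentile. Genes were represented by their brightest probe among those well above background on at least 4 of 8 arrays (13607 genes) and tested with limma 3.58.1 in R 4.3.3 (lmFit, eBayes, two-sided, Benjamini-Hochberg over all genes, adjusted p under 0.05, without a block), with differences taken as ChAT_positive minus ChAT_negative. Genes outside that filter are given as values without a test: the exact permutation test intended for them would compare background signals. The procedure was checked on simulated data with 200 changed genes. It recovered 63% of 2-fold and 90% of 4-fold changes, and 7.27% of its calls were false. A gene left uncalled may thus still differ by 2-fold. The simulated noise was drawn independently for each gene and array and held no slide effect, so these rates may not carry over to the real arrays.

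The 9 genes and the other lists were chosen with earlier results of these data known. Named were all 9 genes, up to 4 called genes per erythroid list or its 2 brightest, up to 2 called genes per marker list or its brightest, and the 6 genes nearest in profile. Genes named after their values were seen are Car3, Gata1, Ermap, Hemgn, Nfe2, Tal1, Lmo2, Gp6, Hbb-bh1, Hbb-bh2 and the undetected genes. Alternatives changed the scaling, the background correction (normexp on the median spot signal with offset 50), the filter, the probe choice, the variance model, array weights and the block, used the deposited table, and left out each array. No column lacked a sample.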

Additional observations from a re-analysis of the deposited data

How the results depend on the processing

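Of the 9 genes, 3 were called lower with all arrays and between 2 and 3 with 1 array left out, and 0 were called higher in any setting run. Lower means were found for 5 of the 6 tested genes, where 46.9% of all genes tested had a lower mean. With Alas2 and Slc4a1, which lay near background, the count was 7 of the 8 genes with a probe. That count was 5 to 7 with 1 array left out, and 5 under median scaling, under normexp and with the deposited table. No sign of a tested gene among the 9 turned in any setting. Over all genes, 428 were lower and 382 higher; these became 119 and 212 under median scaling and 126 and 98 with no filter on dim probes. Higher genes numbered 248 with every probe on its own and 577 with array weights. Without 1 array, lower genes ranged from 116 to 429 and higher genes from 94 to 305; the cause was not tested, beyond the smaller number of arrays. With the replicate number as a block, 5 of the 9 genes were called lower, Car1 (limma adjusted p = 0.00918) and Klf1 (0.00852) in addition, and 1344 genes were lower and 1002 higher. Hbb-b2 (0.019) and Hbb-bs (0.00247, a description only) were called by limma as well. Deviations from the group mean correlated over genes at 0.54, 0.66, 0.52 and 0.032 for same-numbered arrays 1 to 4. The last is too low to take the numbers as pairs, ChAT_positive replicate 4 correlated better with ChAT_negative replicate 3 (0.23), and the labels name no shared mice or day, so the block was not used. Under normexp Hbb-b2 was called (0.0403). Outside the 9 genes, Myb also lost its call under median scaling, with dim probes tested too and with every probe on its own (adjusted p up to 0.21), Retnlg under quantile normalization and with dim probes, and Ppbp and Mpo with dim probes. Over the 12 settings other than leaving out an array, lower calls ranged from 1 to 7 for platelet, 2 to 6 for basophil and mast cell, 0 to 11 for neutrophil, 2 to 7 for NK cell and 0 to 3 for T cell markers, each highest with the block (basophil and mast cell also under normexp), and higher B cell calls from 3 to 8. Leaving out ChAT_positive replicate 1 gained 1 higher globin gene. Without ChAT_positive replicate 2, 1 haem clearance gene was called higher and 1 T cell gene lower. Without ChAT_negative replicate 2, 1 membrane gene was called lower. A robust, trended variance gave 1 higher haem clearance gene and 2 higher erythroid regulators. With the block, 2 erythroid regulators were called lower and 2 higher, so their count of 0 lower did not hold there. The block also gave 1 lower membrane gene, and 1 higher gene each among globins, haem clearance and progenitor markers. With every probe on its own, 1 progenitor marker was also higher. Alas2 and Slc4a1 lay near background, where no difference could be measured.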
